A study of Mus musculus with 15 samples.

Results

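Neural progenitors with induced Nkx2.2 were compared directly with neural progenitors with induced Olig2, 4 of the 15 libraries of the series. The 4 members are the 2 libraries of the line carrying TRE_Nkx2.2 and the 2 of the line carrying TRE_Olig2, taken by their column labels. The series was made to find genes that Nkx2.2, Olig2 and Nkx6.1 repress. Its 6 groups are the Nkx2.2, Olig2 and Nkx6.1 lines (n = 2 each), an Nkx6.1-P2A-Nkx2.2 and an Nkx6.1-P2A-Olig2 line (n = 2 each, called the 2-factor lines below), in which 1 transcript gives both proteins, and the parental mA2.lox.Cre line carrying TRE_Cre (n = 5). All cells were mouse embryonic stem cells of the 129/Ola strain, grown on sparse feeder cells that were removed before differentiation, held in suspension for 2 days and given 500 nM retinoic acid. Every line, controls included, was exposed to 1 ug/ml doxycycline for 12 hours, which switches on the transgene from a tetracycline-responsive element (TRE). The labels give no number of clones per line, so line and transgene cannot be told apart, and they do not say that libraries came from separate cultures. The spread behind every p-value is therefore that of these libraries only, and may be technical.

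Nkx2.2 and Olig2 are transcription factors of the ventral neural tube that act mainly as repressors. Olig2 marks the domain that makes somatic motor neurons and later oligodendrocytes, and works there with the proneural factor Neurog2. Nkx2.2 marks the neighbouring, more ventral domain that makes V3 interneurons and, in the hindbrain, visceral motor neurons. The factors repress each other's genes, which helps to draw the border between these domains.

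Library totals were 17751854 and 16042726 counts for the Nkx2.2 line and 14440309 and 17002741 for the Olig2 line, within a range of 12282038 to 19426544 over the series. Levels below are CPM, counts relative to the library total, scaled by TMM, a correction for library composition. Summed neural progenitor markers (Sox1, Sox2, Sox3, Nes and Pax6) were 271 and 425 CPM in the Nkx2.2 line and 331 and 558 in the Olig2 line, so replicate 2 was the higher in each. Summed pluripotency markers (Pou5f1, Nanog, Zfp42 and Esrrb) ran the other way, at 107 and 59.5 against 163 and 48.4 CPM. Genes on chromosomes 18 and Y also separated the lines. Of 373 tested genes on chromosome 18, 129 passed the test and 128 of these were lower in the Nkx2.2 line, with a median log2 fold change of -0.52, while 5 of 5 tested genes on chromosome Y were higher. Between the 2-factor lines the chromosome 18 median was -0.02 and 2 of its genes passed. Genes of these chromosomes are not described further, and the part of the chromosomes in the results was not tested.

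The transgenes matched the labels. Nkx2-2 stood at 505 and 448 CPM in the Nkx2.2 line and at 0.488 and 0.901 CPM in the Olig2 line. Olig2 stood at 422 and 522 CPM in the Olig2 line, at 1.99 and 5.29 CPM in the Nkx2.2 line, and at 5.58, 17.3 and 45.1 CPM (lowest, median and highest) in the controls. The log2 fold change of the Nkx2.2 over the Olig2 line was 9.38 ± 0.40 (SE) for Nkx2-2 and -7.04 ± 0.78 for Olig2. Nkx6-1, the third factor of the series, had 28.4 and 65.1 CPM against 14.3 and 29.4 CPM. These ranges overlapped and the difference did not pass (1.09 ± 0.52, adjusted p = 0.533).

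Outside chromosomes 18 and Y, 123 of 13553 tested genes differed between the lines at an adjusted p below 0.05, which is 0.908% of them. The test was edgeR's quasi-likelihood test in 1 model of all 15 libraries, and p-values were adjusted over all 13982 tested genes by the Benjamini-Hochberg method. In the Nkx2.2 line 65 genes (0.48%) were lower and 58 (0.428%) higher. A difference of at least 2-fold was seen for 56 of them (0.413%), 28 in each direction. The libraries of the lines did not overlap for 123 of the 123 genes, against 35.6% of all tested genes. The calls were made on these same values, so this is no separate support for them. The number of calls leaned on single libraries: it was 59 or 44 without replicate 1 or 2 of the Nkx2.2 line and 63 or 36 without replicate 1 or 2 of the Olig2 line. With chromosomes 18 and Y taken out of the fit 62 genes passed, all among the 123. No log2 fold change of the 123 moved by more than 0.0065. The adjustment behind the 123 also covered the chromosome 18 and Y genes, of which 129 and 5 passed. Its threshold of 0.05 therefore applies to all tested genes together and not to the 123 alone.

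**Figure D1:**
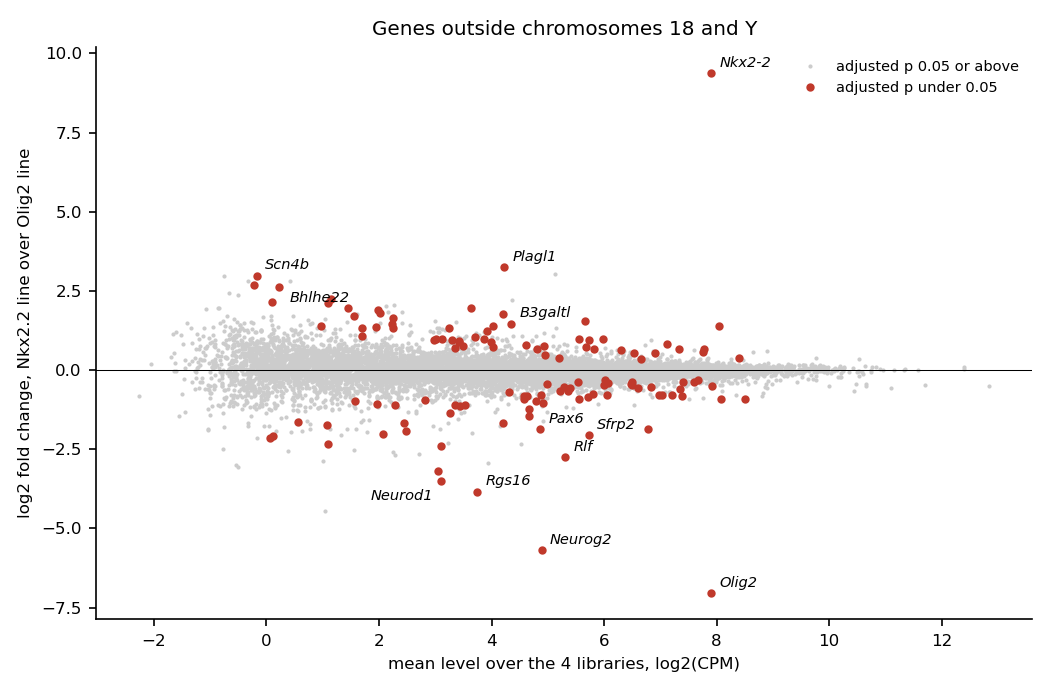
Log2 fold change of the Nkx2.2 over the Olig2 line (y axis) against the mean log2(CPM) of the 4 libraries (x axis), 1 point per tested gene outside chromosomes 18 and Y. The 123 genes past the test are red, and Neurog2 at -5.69 lies far below the others apart from Olig2 itself.

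Proneural genes, whose basic helix-loop-helix factors start neuron formation, included Neurog2, the call with the largest difference apart from the factors themselves. Of 12 tested proneural and early neurogenic factors, 2 were lower and 1 was higher in the Nkx2.2 line, 9 did not pass, and the list's median log2 fold change was -0.69 against 0.006 over all tested genes. Neurog2 (mm10, chr3:127633135-127635631, plus strand) had 0.607 and 1.68 CPM in the Nkx2.2 line, 45.2 and 71.2 CPM in the Olig2 line, and 5.27, 14.9 and 23.8 CPM (lowest, median and highest) in the controls. Every Nkx2.2 library thus lay below every control and every Olig2 library above every control. The log2 fold change between the lines was -5.69 ± 0.63 (adjusted p = 4.58e-04), made up of -3.64 in the Nkx2.2 line (adjusted p = 0.0104) and 2.05 in the Olig2 line (adjusted p = 0.00944) against the control. Values against the control, where 0.708% of genes passed in the Nkx2.2 line and 0.708% in the Olig2 line, share the same 5 control libraries here and in what follows.

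Neurod1, which acts after the proneural genes in differentiating neurons, had 1.1 and 1.68 CPM in the Nkx2.2 line and 12.1 and 19.6 CPM in the Olig2 line. Its log2 fold change was -3.52 ± 0.56 (adjusted p = 0.00429). Against the control it was 2.46 in the Olig2 line (adjusted p = 0.00317) and -1.06 in the Nkx2.2 line (adjusted p = 0.59). Insm1, a zinc-finger factor of newborn neurons, had 13.5 and 54.1 CPM against 5.99 and 8.65 CPM and did not pass (adjusted p = 0.102).

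Summed neuron markers overlapped between the lines. The sum of Tubb3, Dcx, Stmn2, Elavl3 and Map2 was 60.9 and 87.8 CPM in the Nkx2.2 line and 63 and 109 CPM in the Olig2 line, against 64.7 to 81.1 CPM in the controls. The markers did not all run one way. Map2, which made up much of the sum, had 33.9 and 47.8 CPM in the Nkx2.2 line and 25.4 and 36.6 CPM in the Olig2 line. Tubb3 had 10.1 and 15.1 against 15.3 and 31.8 CPM, and Elavl3 had 4.97 and 10.4 against 8.85 and 24.1 CPM. None of 19 tested neuronal differentiation genes passed, and 15 of them had a negative log2 fold change (median -0.32). None of 14 pan-neural progenitor genes passed, with 10 negative (median -0.21). In these whole-culture libraries, fewer cells of a type and less RNA per cell cannot be told apart. The proneural differences stand beside these marker values, and the markers' part in them was not tested.

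**Figure D2:**
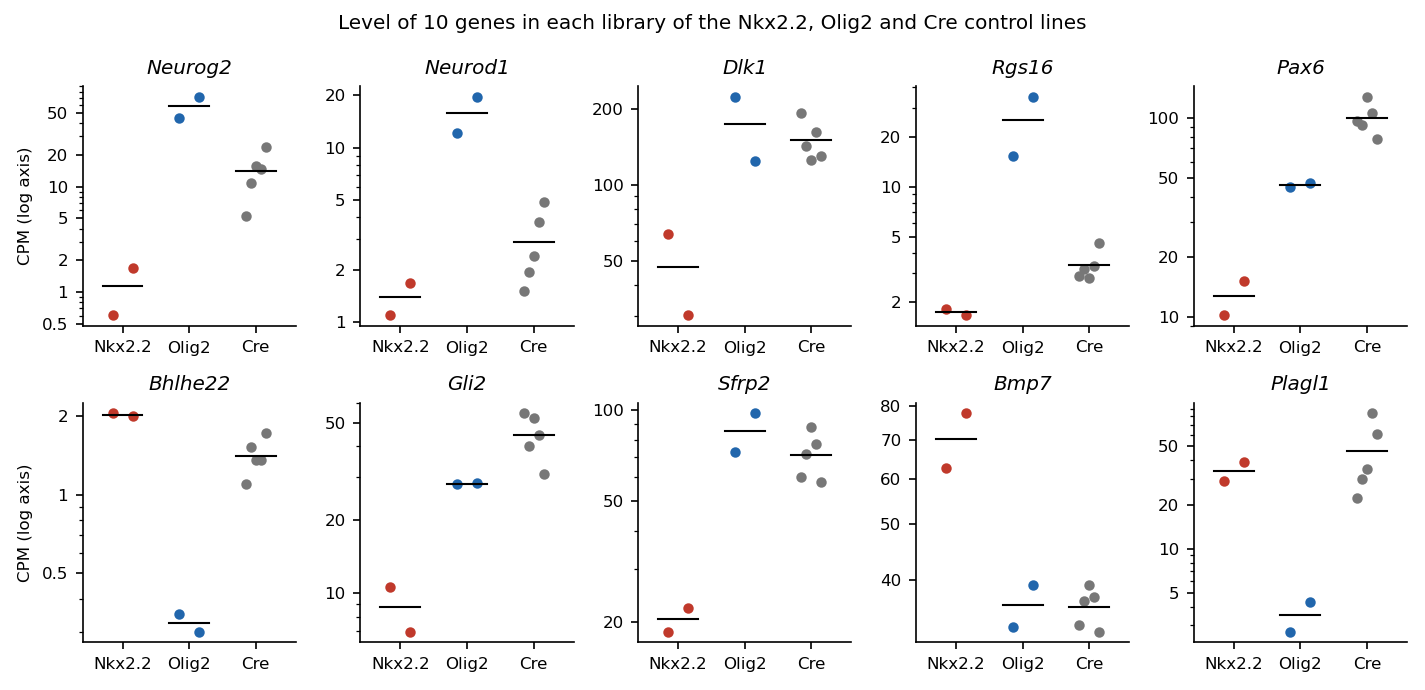
Level in CPM (log axis, a separate scale for each gene) of 10 genes in each library of the Nkx2.2 line (red, n = 2), the Olig2 line (blue, n = 2) and the Cre control (grey, n = 5). Bars are means. Neurog2 lay below all controls in the Nkx2.2 line and above all controls in the Olig2 line, and Pax6 lay below all controls in both lines.

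Regulators of G-protein signalling stood beside the proneural genes among the largest differences. Rgs16, which switches off signals from G-protein-coupled receptors, had 1.82 and 1.68 CPM in the Nkx2.2 line, 15.4 and 34.8 CPM in the Olig2 line and 2.81, 3.19 and 4.56 CPM in the controls. The fold change between the lines was -3.84 ± 0.36 on the log2 scale (adjusted p = 1.31e-04). Rgs8, of the same family, had 1.49 and 1.8 CPM against 6.83 and 23.1 CPM (-3.18 ± 0.51, adjusted p = 0.00444). Both were higher than the control in the Olig2 line, by 2.91 (adjusted p = 6.00e-05) and 2.72 (adjusted p = 9.14e-04) on the log2 scale, and neither differed from it past the threshold in the Nkx2.2 line (adjusted p = 0.313 and 0.878). The genes lie near each other on the plus strand of chromosome 1, Rgs8 at chr1:153653025-153700323 and Rgs16 at chr1:153740349-153745468. The other 10 tested Rgs genes did not pass, and the family's median was -0.04.

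Among transcription factors of the intermediate neural tube, 1 of 11 tested was lower and 1 higher, with a median of -0.47. Pax6 (chr2:105668900-105697364, plus strand), a homeodomain factor of neural progenitors that shares a border with Nkx2.2 in the neural tube, had 10.2 and 15.1 CPM in the Nkx2.2 line, 44.7 and 46.8 CPM in the Olig2 line and 77.8, 96.6 and 127 CPM in the controls. It was below all controls in both lines, by -2.99 (adjusted p = 2.79e-05) and -1.13 (adjusted p = 0.00706) on the log2 scale, and lower in the Nkx2.2 line than in the Olig2 line (-1.86 ± 0.24, adjusted p = 0.00124). Bhlhe22, a basic helix-loop-helix repressor found in spinal interneurons, had 2.04 and 1.99 CPM in the Nkx2.2 line, 0.349 and 0.3 CPM in the Olig2 line and 1.1, 1.35 and 1.72 CPM in the controls. That difference (2.61 ± 0.35, adjusted p = 0.00155) went with a fall in the Olig2 line (-2.10, adjusted p = 0.00264), while the Nkx2.2 line did not pass against the control (0.52, adjusted p = 0.551).

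Genes of the neuron types that the domains are known to make gave few calls. In the list of V3 interneuron and visceral motor neuron genes, 7 of 8 tested members had a positive log2 fold change and the median was 1.34, but only Tlx1 passed. Between the 2-factor lines the median of this list was 0.29 and no member passed. Tlx1, a homeobox gene, had 5.24 and 3.49 CPM in the Nkx2.2 line against 0.976 and 1.26 CPM (1.95 ± 0.36, adjusted p = 0.0108). Sim1, a factor of V3 interneurons, had 4.3 and 11.2 CPM against 1.19 and 2.46 CPM (2.07 ± 0.51, adjusted p = 0.0634). Against the control, Sim1 passed in the Nkx2.2 line (2.02, adjusted p = 0.0273). None of 6 tested somatic motor neuron genes passed between the lines (median -0.55). Isl1, one of them, had 2.1 and 1.18 CPM against 3.97 and 5.83 CPM (-1.57 ± 0.63, adjusted p = 0.399). Of 8 tested oligodendrocyte genes Myrf alone passed, the myelin regulatory factor, at 31.9 and 32.2 CPM against 42.2 and 50 CPM (-0.53 ± 0.12, adjusted p = 0.0407).

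In the Notch pathway, through which neighbouring cells hold each other back from neuron formation, 1 of 23 tested genes passed and 16 had a negative value, with a median of -0.44. The gene that passed, Dlk1, encodes a non-canonical ligand and is imprinted. It had 63.9 and 30.4 CPM in the Nkx2.2 line, 223 and 124 CPM in the Olig2 line and 125, 143 and 193 CPM in the controls (-1.87 ± 0.32, adjusted p = 0.00653). The Notch target Hes5 had 3.97 and 11.3 CPM against 17.2 and 59.9 CPM, which did not pass (-2.35 ± 0.71, adjusted p = 0.166). Dll3, a ligand-family protein, also did not pass, at 2.81 and 6.22 CPM against 9.76 and 18.7 CPM (-1.67 ± 0.46, adjusted p = 0.116).

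Of 14 tested genes of the Sonic hedgehog pathway, which patterns the ventral neural tube, only the transcriptional effector Gli2 passed. Gli2 had 10.6 and 6.97 CPM in the Nkx2.2 line, 27.9 and 28.3 CPM in the Olig2 line and 30.7, 44.4 and 54.5 CPM in the controls. It was lower in the Nkx2.2 line than in the Olig2 line (-1.67 ± 0.33, adjusted p = 0.0174) and than in the control (-2.33, adjusted p = 0.00303), while the Olig2 line did not pass against the control (-0.66, adjusted p = 0.315).

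Of 30 tested Wnt pathway genes 2 were lower and 1 higher, with a median of -0.12. Sfrp2, a secreted Wnt modulator, had 18.6 and 22.3 CPM in the Nkx2.2 line, 72.9 and 97.6 CPM in the Olig2 line and 58.1, 71.9 and 88 CPM in the controls (-2.06 ± 0.21, adjusted p = 2.84e-04). Both Nkx2.2 libraries lay below the control range, while the Olig2 libraries lay within it or above it. Fzd10, a Wnt receptor, had 7.56 and 7.16 CPM against 13.7 and 17.7 CPM (-1.09 ± 0.24, adjusted p = 0.0371). Sost, a secreted Wnt inhibitor, was higher, at 4.53 and 4.54 CPM against 0.976 and 1.74 CPM (1.72 ± 0.35, adjusted p = 0.0211). Bmp7, a bone morphogenetic protein counted with the dorsal and roof plate genes, was the only 1 of 15 in that list to pass. It had 62.6 and 77.8 CPM in the Nkx2.2 line, 33.2 and 39.2 CPM in the Olig2 line and 32.6, 36.8 and 39.2 CPM in the controls (0.95 ± 0.13, adjusted p = 0.0016). The only call among 25 BMP and TGF-beta genes was Ltbp2, a matrix protein, at 0.662 and 0.747 CPM against 3 and 4.15 CPM (-2.34 ± 0.47, adjusted p = 0.0208).

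Eph receptors and ephrins guide axons and sort cells at borders. Of 36 tested axon guidance genes 23 had a negative value, with a median of -0.17, and 3 passed. All 3 were of this family and lower in the Nkx2.2 line. The receptor Ephb1 had 5.68 and 4.98 CPM against 11.7 and 15.8 CPM (-1.37 ± 0.21, adjusted p = 0.00387). Epha4 had 31.1 and 34.5 CPM against 63.4 and 58.9 CPM (-0.90 ± 0.15, adjusted p = 0.00565). The ligand Efnb2 had 44.8 and 52.3 CPM against 77.2 and 92.1 CPM (-0.80 ± 0.19, adjusted p = 0.049). All 3 were also lower than the control in the Nkx2.2 line (adjusted p = 0.0138, 0.00616 and 0.00616) and did not pass in the Olig2 line (adjusted p = 0.588, 0.997 and 0.403).

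Imprinted genes, of which 1 parental copy is silenced, gave 3 calls among 28 tested (median 0.30): Dlk1 above, Plagl1 and Ndn. Plagl1, a zinc-finger factor, had 29 and 38.8 CPM in the Nkx2.2 line, 2.72 and 4.33 CPM in the Olig2 line and 22.2, 35 and 83.8 CPM in the controls (3.25 ± 0.57, adjusted p = 0.00744). The Olig2 libraries alone left the control range (-3.70, adjusted p = 0.00156). Ndn, which encodes necdin, had 64.8 and 63 CPM against 36.8 and 39.9 CPM (0.74 ± 0.11, adjusted p = 0.00325).

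Markers of other cell types gave scattered calls. The mesoderm markers T, Tbx6, Msgn1, Meox1 and Tcf15 summed to 29.6 and 30.2 CPM in the Nkx2.2 line, 18.1 and 13.9 CPM in the Olig2 line and 18.7 to 35.2 CPM in the controls, with Msgn1 at 0 in both lines. Most of that sum was Meox1, a somite gene (23.8 and 23.7 CPM against 10.1 and 7.87, 1.40 ± 0.29, adjusted p = 0.0211). Foxc2, a mesenchymal forkhead factor, went the other way, at 3.09 and 1.49 CPM against 11.6 and 6.19 CPM (-1.93 ± 0.39, adjusted p = 0.0211). In the neural crest list, which had 11 tested members, Ednrb, an endothelin receptor (1.55 ± 0.34, adjusted p = 0.0363), and Sox5 (1.32 ± 0.31, adjusted p = 0.0494) were higher, with the markers Sox10, Foxd3, Tfap2a and Snai2 summing to 9.49 and 4.79 CPM against 5.65 and 2.4. None of 15 tested endoderm and extraembryonic genes passed, yet 13 of them had a negative value (median -0.52). They summed to 10620 and 10766 CPM in the Nkx2.2 line against 14781 and 15005 CPM in the Olig2 line. The controls had 8064 to 10404 CPM apart from control replicate 5, which had 16566 CPM. The endoderm markers Sox17, Gata4 and Afp summed to 214 and 181 against 296 and 268 CPM. None of 17 pluripotency genes passed, with 13 negative (median -0.29). None of 11 fibroblast genes passed, with 2 negative (median 0.38), and the fibroblast markers summed to 73.4 and 53.7 against 61.9 and 40.4 CPM. The part of other cell types in the differences was not tested.

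Several lists gave no call: 29 Hox genes (median 0.05), 18 retinoic acid genes (0.01), 24 FGF genes (-0.15), 27 cell cycle regulators (0.03), 11 ventral and floor plate genes (0.09), 9 genes of V0 to V2 interneurons (-0.09), 8 glial genes (0.15), 10 cadherins (0.05), 10 hyaluronan genes (0.11), 19 hypoxia and glycolysis genes (-0.13) and 6 Groucho co-repressor genes (0.33). Among 18 p53 response genes Plk2, a polo-like kinase, was higher (0.65 ± 0.11, adjusted p = 0.00626).

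**Figure D3:**
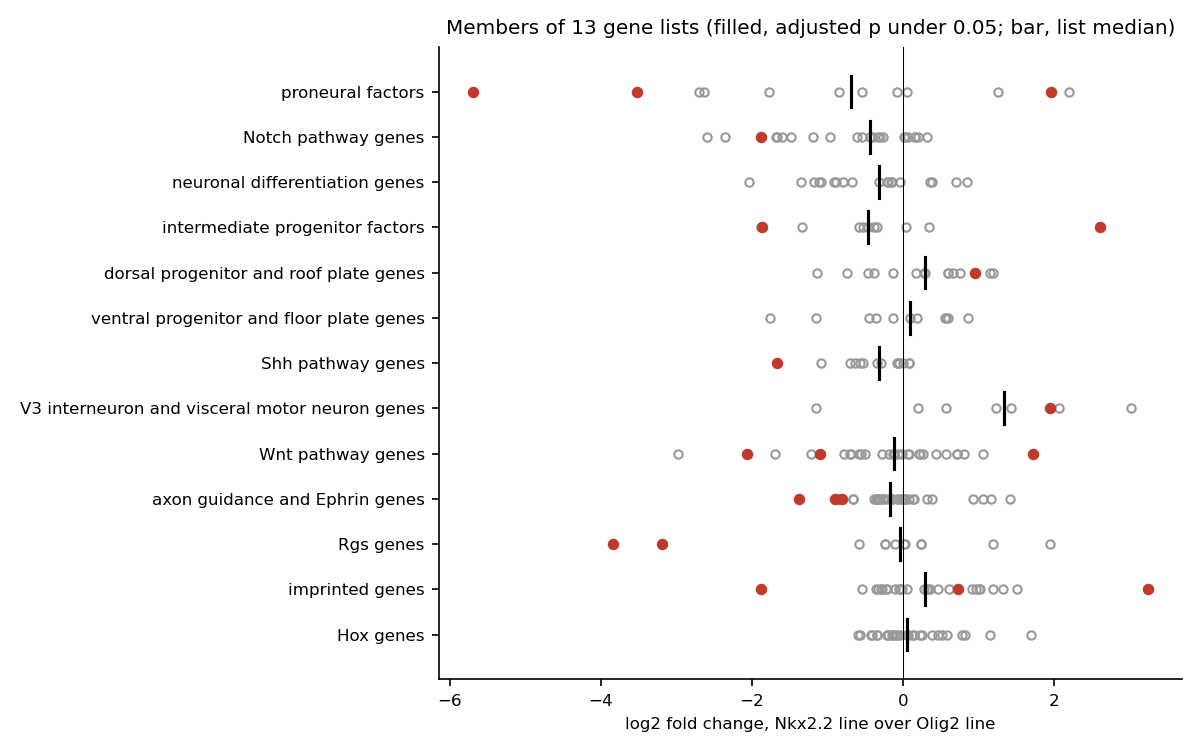
Log2 fold change of the Nkx2.2 over the Olig2 line (x axis) for the tested members of 13 of the gene lists, 1 row per list and 1 point per gene. Genes past the test are filled, vertical bars are list medians, and the proneural row runs from Neurog2 at -5.69 and Neurod1 at -3.52 to values above 0.

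The remaining genes among the 10 most negative and 10 most positive calls belonged to no list, and most were at low levels. Rlf (chr4:121145373-121215084, minus strand), a zinc-finger protein, had 9.05 and 11.5 CPM in the Nkx2.2 line, 63.2 and 75.3 CPM in the Olig2 line and 47.5, 61.7 and 64 CPM in the controls (-2.76 ± 0.15, adjusted p = 8.79e-07). Pappa, a protease of insulin-like growth factor binding proteins, had 1.99 and 3.55 CPM against 9.2 and 19.6 CPM (-2.39 ± 0.46, adjusted p = 0.0145). Stmn4, a stathmin (-2.14 ± 0.50, adjusted p = 0.0498), and Asic4, of the acid-sensing channel family (-2.08 ± 0.39, adjusted p = 0.0132), were lower at 0.221 to 0.56 and 0.386 to 0.436 CPM. Scn4b, a sodium channel subunit, had 1.55 and 1.62 CPM against 0.209 and 0.18 CPM (2.98 ± 0.51, adjusted p = 0.00648). Also higher were Pnmal1 (2.67, adjusted p = 0.0209), the potassium channel gene Kcnj11 (2.25, adjusted p = 0.0476), Fam43b (2.14, adjusted p = 0.0175) and the homeobox gene Barx2 (2.10, adjusted p = 0.049), each between 1.05 and 5.23 CPM in the Nkx2.2 line.

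Calls that were kept in all 4 fits that each left out 1 of the 4 libraries numbered 18, among them Neurog2, Rgs16, Rlf, Pax6, Bhlhe22, Sfrp2, Bmp7 and Ndn. Some of these kept calls, such as Klhdc8a and Zfp703, were for genes not taken for naming. Of the 43 called genes taken for naming, the factors included, most lost the call in at least 1 of these fits, without a change of sign. With chromosomes 18 and Y out of the fit, 15 of the 43 had an adjusted p of 0.0542 to 0.107: Barx2, Ednrb, Efnb2, Foxc2, Fzd10, Kcnj11, Ltbp2, Meox1, Myrf, Plat, Pnmal1, Ppp1r21, Sost, Sox5 and Stmn4.

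The same exchange of factors was also made beside Nkx6.1, in the 2-factor lines, which share no library with the comparison above. There 19 of 13553 genes passed (0.14%), 14 lower (0.103%) and 5 higher (0.0369%) with Nkx2.2. That count fell to between 3 and 7 without any 1 of the 4 libraries compared, was 10, 11, 11 and 12 without control replicate 2, either Nkx6.1 library or control replicate 4, and was 41 without control replicate 5. Of the 121 genes called between the single-factor lines, Nkx2-2 and Olig2 aside, 102 (84.3%) had the same sign in this second pair, against 52.5% of all 13550 genes. An unadjusted p below 0.05 in the second pair was found for 4.48% of all genes. Such a p together with the same sign in both pairs was found for 59 of the 121 (48.8%), against 3.45% of all genes. The 64 lower genes had a median log2 fold change of -0.91 in the single-factor pair and -0.31 in the second, and the 57 higher genes 0.99 and 0.46.

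**Figure D4:**
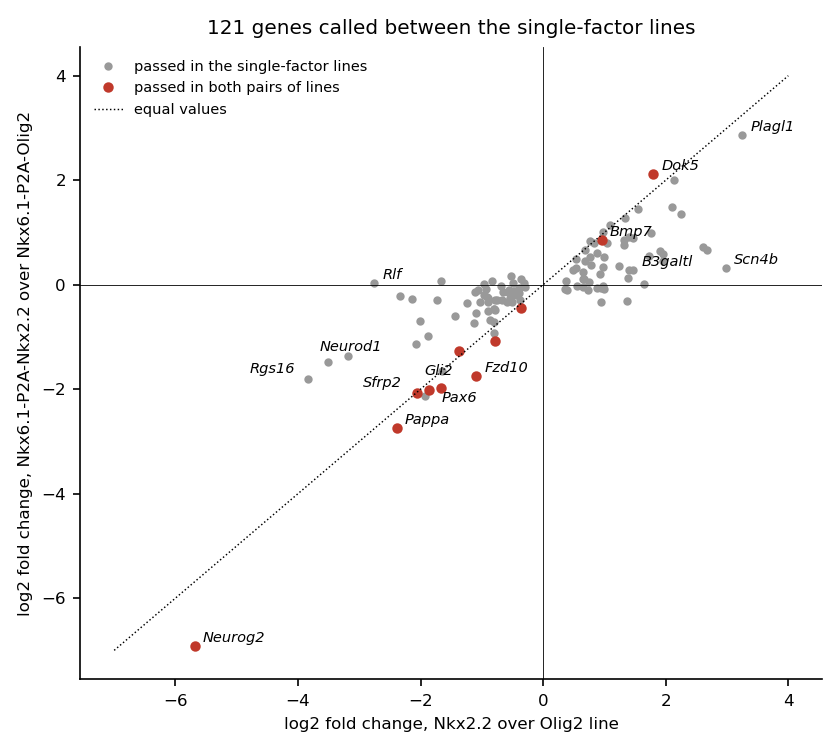
Log2 fold changes of the 121 genes called between the single-factor lines (x axis, Nkx2.2 over Olig2) in the 2-factor lines, which also carry Nkx6.1 (y axis). Red points passed in both pairs and the dotted line marks equal values. Sfrp2 and Pax6 lie near it, Neurog2 lies below it (-5.69 on the x axis and -6.91 on the y axis), and Rlf is near 0 on the y axis.

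In both pairs 11 genes passed, 9 lower and 2 higher with Nkx2.2. Neurog2 again had the lowest values, at 0.16 and 0.126 CPM with Nkx2.2 and 15.5 and 20.4 CPM with Olig2 (-6.91, adjusted p = 0.0061). Pax6 had 10.7 and 7.88 against 41.2 and 32.8 CPM (-2.01, adjusted p = 0.0061), and Sfrp2 had 21.7 and 26.5 against 110 and 92.6 CPM (-2.07, adjusted p = 0.00107). The others lower in both were Gli2 (-1.97), Pappa (-2.75), Fzd10 (-1.75), Ephb1 (-1.27), Plat, which encodes tissue plasminogen activator (-0.79 in the single-factor pair and -1.08 here), and Ppp1r21 (-0.37 and -0.45). Bmp7 (0.86) and Dok5, a signalling adaptor (1.80 ± 0.34 in the single-factor pair and 2.12 here), were higher in both. Values for Neurod1 (-1.47, adjusted p = 0.837) and Rgs16 (-1.81, adjusted p = 0.0531) did not pass in the second pair.

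The other 6 genes that passed in the second pair, beside Nkx2-2 and Olig2, did not pass between the single-factor lines. They were Adam19 (0.63, adjusted p = 0.0298) and Eif5b (0.62, adjusted p = 0.014), higher with Nkx2.2, and H13 (-0.71, adjusted p = 0.0418), Cryge, Mest and Hand2, lower with Nkx2.2. Cryge, a lens crystallin gene, had 3 counts over the 2-factor libraries with Nkx2.2 and 56 over those with Olig2, a ratio of 16.9 with an exact 95% interval of 5.49 to 84.3 for counting error. The same genes in the single-factor pair had -0.05 for Adam19, 0.23 for Eif5b, -0.11 for H13 and 0.08 for Cryge.

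Promoter windows from RefSeq (GRCm38.p6) run from 250 bases before to 50 bases after the start, 300 bases each, and were matched for 7 of these 11 genes. They are shown for 4 of the genes lower with Nkx2.2 in both pairs, a proneural factor, a progenitor factor and 2 Wnt genes. The windows are chr3:127632886-127633185 for Neurog2, chr2:105668646-105668945 for Pax6, chr3:83766071-83766370 for Sfrp2 and chr5:128600856-128601155 for Fzd10, each on the plus strand (the table lists 2 windows for Pax6, of which 1 is shown) and written 5′ to 3′. Capitals mark a motif found by the search that follows.
Neurog2: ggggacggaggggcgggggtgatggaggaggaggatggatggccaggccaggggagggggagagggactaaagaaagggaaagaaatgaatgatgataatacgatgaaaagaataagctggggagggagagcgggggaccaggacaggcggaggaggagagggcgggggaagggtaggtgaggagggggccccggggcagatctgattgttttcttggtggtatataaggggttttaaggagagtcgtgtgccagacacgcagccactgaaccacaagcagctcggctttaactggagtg
Pax6: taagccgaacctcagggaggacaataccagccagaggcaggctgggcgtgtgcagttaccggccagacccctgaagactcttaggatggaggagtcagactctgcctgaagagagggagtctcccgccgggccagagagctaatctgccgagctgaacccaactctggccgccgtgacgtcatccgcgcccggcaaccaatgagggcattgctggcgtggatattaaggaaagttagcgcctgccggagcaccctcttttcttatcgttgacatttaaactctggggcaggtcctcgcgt
Sfrp2: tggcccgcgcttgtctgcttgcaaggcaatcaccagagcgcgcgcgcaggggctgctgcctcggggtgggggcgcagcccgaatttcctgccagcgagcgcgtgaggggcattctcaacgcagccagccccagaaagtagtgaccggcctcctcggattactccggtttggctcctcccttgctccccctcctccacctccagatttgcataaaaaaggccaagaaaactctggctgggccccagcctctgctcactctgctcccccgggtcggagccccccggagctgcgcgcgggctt
Fzd10: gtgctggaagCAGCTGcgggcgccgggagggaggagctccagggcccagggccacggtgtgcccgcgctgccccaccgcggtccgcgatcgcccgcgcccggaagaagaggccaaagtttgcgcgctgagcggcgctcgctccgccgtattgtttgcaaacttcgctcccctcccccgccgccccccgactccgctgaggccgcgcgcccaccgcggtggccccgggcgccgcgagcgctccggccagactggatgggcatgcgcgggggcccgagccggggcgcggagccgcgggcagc

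The motifs searched on both strands were TNAAGTG, a core bound by Nkx2 homeodomains, and the E-boxes CAGCTG and CATATG, each of which reads the same on both strands. Among the 4 windows there was 1 match, a CAGCTG in Fzd10 starting 240 bases before the start. The matched windows of Gli2, Ephb1 and Ppp1r21, which are not shown, held none of the motifs. TNAAGTG was in 2 of 44 windows of genes lower in the Nkx2.2 line (4.55%) and 2 of 43 of the higher genes (4.65%), against 11.5% of all 26794 windows. CAGCTG was in 6 (13.6%) and 7 (16.3%), against 16.2%, and CATATG in 2 (4.55%) and 2 (4.65%), against 3.79%. The shares of all windows took the first listed window of each gene, tested or not. Called genes instead had the window nearest their annotated start, so the shares are not strictly alike. A match describes letters only and is not a binding site.

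The difference between the exchanges without and with Nkx6.1 was tested as an interaction, and 6 of 13553 genes passed (0.0443%), named here after their values were seen. The pairs are different lines, and the numbers in their library labels begin with 21 in the single-factor pair and 23 in the 2-factor pair. Nkx6.1 therefore cannot be told apart from line or label series here. The count was 2 or 3 without any 1 of the Nkx2.2 or 2-factor libraries, and 3 without Olig2 replicate 2. For 4 of the genes the single-factor lines differed and the 2-factor lines had log2 fold changes near 0, at 0.03 for Rlf, 0.29 for B3galtl, -0.03 for Ttc27 and 0.02 for Tmtc4. Rlf was lower in the Nkx2.2 line, at 9.05 and 11.5 CPM, than in the controls, with 68.9 and 67.6 CPM in the 2-factor line with Nkx2.2 and 69.1 and 64.8 CPM in that with Olig2. B3galtl, a glycosyltransferase gene, had 29 and 30.9 CPM in the Nkx2.2 line, 9.34 and 12.2 CPM in the Olig2 line and 24.3 to 28.4 CPM in the controls. Ttc27 had 65.5 and 59.6 against 33.5 and 29.9 CPM, with 60.5 to 72.8 CPM in the controls. For B3galtl and Ttc27 the Olig2 line was thus the low one, and for Rlf and Tmtc4 the Nkx2.2 line.

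The other genes, Mest and Hand2, did not pass between the single-factor lines. Mest, an imprinted gene, had 415 and 271 CPM in the Nkx2.2 line and 313 and 223 CPM in the Olig2 line, but 39.9 and 48.6 CPM in the 2-factor line with Nkx2.2 and 553 and 373 CPM in that with Olig2. Hand2, a basic helix-loop-helix factor, had 8.33 and 6.54 against 5.79 and 6.61 CPM in the single-factor pair and 2.33 and 2.08 against 7.01 and 7.7 CPM in the second. Its interaction had an adjusted p of 0.0389, and of 0.116 with chromosomes 18 and Y out of the fit.

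Tmtc4 lies at the end of chromosome 14 beside other genes with like values, chosen after the values were seen. Tmtc4, a transmembrane protein, had 18.7 and 18.8 CPM in the Nkx2.2 line and 36.7 and 36.4 CPM in the Olig2 line (-0.96 ± 0.10, adjusted p = 2.37e-04). Its neighbour Pcca, a subunit of propionyl-CoA carboxylase, had 17.3 and 17.1 against 31.8 and 29.3 CPM (-0.83, adjusted p = 0.00278). Ggact, which overlaps Pcca in the annotation so that reads may be shared, had 3.75 and 2.43 against 6.97 and 6.43 CPM (-1.11, adjusted p = 0.0234). Against the control the log2 values of Pcca and Ggact were -0.72 and -0.92 in the Nkx2.2 line and 0.11 and 0.19 in the Olig2 line. Tmtc4 had 33.9, 38.1 and 39.9 CPM in the controls, and its Olig2 value against them was -0.04. Further in, Zic2 did not pass between the lines (-0.46), though its Nkx2.2 libraries lay at -0.67 and -0.86 against the control and its Olig2 libraries at -0.17 and -0.47. Nalcn, towards the end, did not pass (0.06), and in the 2-factor pair the 3 genes had 0.06, -0.13 and 0.02.

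**Figure D5:**
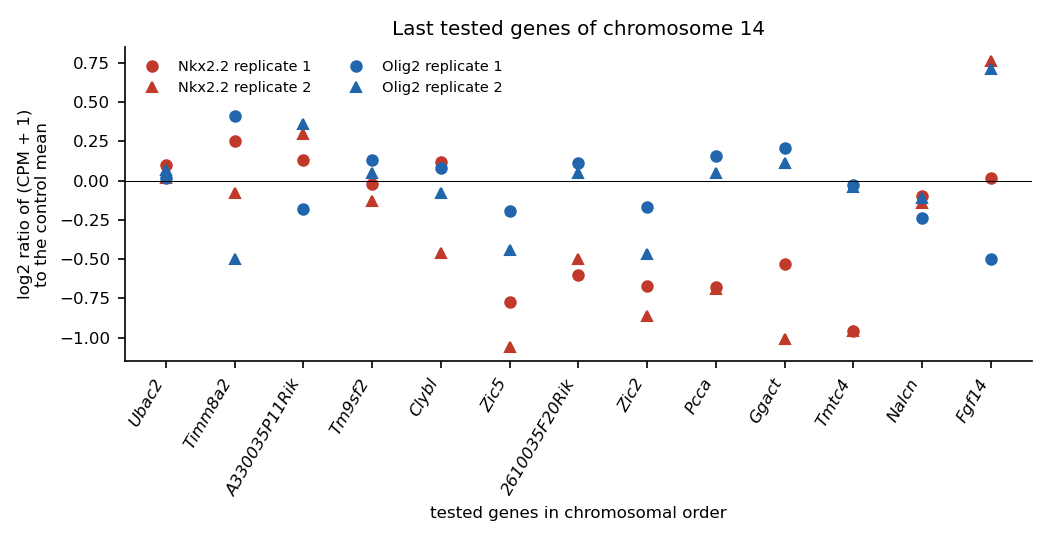
Log2 ratio of each library of the Nkx2.2 (red) and Olig2 (blue) lines to the control (y axis, from CPM + 1) for the last tested genes of chromosome 14 in order along the chromosome (x axis). Pcca, Ggact and Tmtc4 lie at -0.53 to -1.01 in the Nkx2.2 libraries with Olig2 libraries near 0, and Zic2 and its neighbours are below 0 in the Nkx2.2 libraries as well.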

How the data were processed

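Values were taken from a count table of 15 libraries deposited by the authors. The name of the sheet says RPKM, yet the authors' values are whole-number counts (0 non-integer cells). Libraries were made with a TruSeq kit, per the labels' protocols. STAR, DESeq2 and mm10 are named in the submitters' processing notes, with no roles. The counting tool, annotation and strand setting are not given in the sources used here. Overlapping, antisense or near-identical genes may therefore share reads. A second deposited table gives a ratio for 224 genes, and 2240 of 2240 cells equalled the count divided by the mean control count within 1e-08. It was used for that check only.

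Of 23420 rows, 27 held a date in place of a symbol (0.228% to 0.253% of counts) and were not tested. A gene was tested if 2 or more libraries reached 1 CPM, which left 13982, with edgeR 4.0.16 (R 4.3.3): TMM, then quasi-likelihood tests in 1 model of 6 groups, with Benjamini-Hochberg adjustment and a threshold of 0.05. "Higher", "lower" and "passed" refer to it. Results are given for 13553 genes outside chromosomes 18 and Y, leaving out 51 with no matched chromosome (0 called). Positions came from GENCODE M21, on the mm10 assembly. Of the symbols, 21751 matched directly, 1277 by synonym and 209 through RefSeq, and 156 did not. Intervals and standard errors cover these libraries only.

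The compared lines, gene lists and named genes were chosen with earlier results of these data known. The rule for naming took the 3 factors, the 10 lowest and 10 highest called log2 fold changes, and up to 4 called members per list. Genes passing in the 2-factor pair or the interaction, list members that did not pass, and chromosome 14 genes were named after their values were seen. Some genes taken by the rule or the lists are not reported here. Alternatives were median-of-ratios scaling, DESeq2 1.42.0, limma 3.58.1 on log2(CPM + 1) and log2(CPM + 0.5), no filter, a 5 CPM filter, a robust fit, only the compared groups, label series, replicate block, label number, no chromosomes 18 and Y, and each library left out. The test was tried on simulated counts first.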

Additional observations from a re-analysis of the deposited data

Results flagged for a closer look

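Among the 5 control libraries, single values stood apart from the other 4 for 4 of the named genes. Rlf was lowest in control replicate 5, at 47.5 CPM. Stmn4 was highest in control replicate 5, at 0.667 CPM, and so was Epha4, at 77.5 CPM. Pnmal1 was highest in control replicate 2, at 0.627 CPM. Chance flags about 1 in 20 groups in this way.

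The exchange of Olig2 for Nkx2.2 gave different values without and with Nkx6.1 for 6 genes by the interaction test. The log2 difference between the exchanges was -2.79 for Rlf, -0.98 for Tmtc4, 1.01 for Ttc27, 1.18 for B3galtl, 3.74 for Mest and 2.00 for Hand2. The cause was not tested.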

How the results depend on the processing

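The counts of genes called, 123 between the single-factor lines, 19 between the 2-factor lines and 6 for the interaction, stayed within 1.5 times with median-of-ratios scaling, no filter, a 5 CPM filter, a robust fit and the label series as a term. With limma on log2(CPM + 1) or log2(CPM + 0.5) only the second moved, to 32 and 32. DESeq2 called 227, 71 and 20, with 120 of the 123 among its calls. With only the compared groups, and so fewer libraries to estimate the spread, the counts were 3, 5 and 2. Without chromosomes 18 and Y in the fit the first was 62. Leaving out 1 library gave 36 to 165, 3 to 41 and 2 to 7. Libraries of the same replicate number deviated together (r = 0.727 over genes in the single-factor pair and 0.583 in the second). Each compared line has replicate numbers 1 and 2 only, while the controls run from 1 to 5. The label numbers differ from these: replicates 1 and 2 carry 212 and 215 in the Nkx2.2 line and 214 and 215 in the Olig2 line. Both 2-factor lines carry 232 and 234. The labels do not say that either kind of number marks a shared culture or day. A replicate block, set by the replicate number of every library, controls included, gave 207, 58 and 2 calls, with 112 of the 123 kept. The label number as a term gave 689, 177 and 107, with 115 kept. Nkx6-1, which did not pass between the lines (adjusted p = 0.533, and 0.198 with the block), passed with the label number as a term (adjusted p = 0.018), while its adjusted p was 0.313 to 0.903 in the other settings. Of the 50 named genes, none reversed in any of these settings. Causes of these shifts were not tested. With 2 libraries per line, small differences and genes under about 1 CPM are poorly resolved.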
